A study of Homo sapiens with 8 samples.

Results

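The total translatome of both HaloTag lines was measured in 4 of the 8 libraries of the series, the inputs, which were identified by their labels. An input is the ribosome pellet of a lysate after RNase I digestion, sampled before the tagged chaperone was pulled down, so it holds ribosome-protected fragments (RPFs) from all ribosomes and not only from those bound to the chaperone. Of these, 2 replicates came from U-2 OS cells whose CCT4, a subunit of TRiC, carried a HaloTag inserted into a loop (the TRiC line), and 2 came from U-2 OS cells whose PFD4 (gene PFDN4), a subunit of prefoldin, carried the tag at its C terminus (the PFDN line). U-2 OS is an established human osteosarcoma cell line. The cells of all 4 samples were treated alike before lysis, with the elongation inhibitor cycloheximide (100 µg/ml, 1 min) and then the crosslinker DSP (2 mM, 30 min), and no untagged or untreated cells were analysed here. Both lines were made by Cas9 knock-in, the CCT4 line as a single sorted clone and the PFD4 line by the same strategy, so a difference between lines is a difference between clones, tags, cultures and libraries at once, and these cannot be told apart. A difference in RPFs also cannot tell apart more mRNA from more ribosomes per mRNA, since no mRNA library of these cells was analysed here, nor fewer cells of a kind from less RNA per cell.

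TRiC is a double ring of 8 different subunits that encloses and folds newly made proteins, actin and tubulin above all. Prefoldin is a hexamer with tentacles that holds nascent actin and tubulin and hands them to TRiC. Inputs serve as the reference against which the pulldowns of such an experiment are divided, so their composition sets what every enrichment is measured against. The question addressed here is how alike the reference translatomes of both lines were, gene by gene.

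The deposited counts summed to 19129686 and 10254334 in the PFDN inputs and to 28787824 and 30217740 in the TRiC inputs. Log2 CPM of replicates correlated at 0.972 (PFDN) and 0.994 (TRiC), and libraries of different lines at 0.915 to 0.921; these are correlations across genes, which are not independent replicates. No replicate was a copy of another, with a chi-square of their counts per degree of freedom of 15.2 in the PFDN line and 33.2 in the TRiC line, which does not show whether the cultures were separate. The PFDN inputs held a count for 18682 and 16257 genes and the TRiC inputs for 27455 and 26634. Thinned to the smallest library total of the series, the numbers were 17857 and 16172 against 23783 and 23129, so the gap was not removed by equal depth.

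The PFDN inputs also stood apart from the other 6 libraries in 1 respect that bears on single genes. For 17 protein-coding genes every exon base is also covered by an exon of an opposite-strand gene, and 6 and 4 of them had counts in the PFDN inputs, whereas 0 of 17 had any count in each of the other 6 libraries. Reads from such genes can be assigned only if counting uses the strand, and which strand setting was used for which library is not given in the sources used here. Among the 49 tested genes with more than 75% of their exon bases under opposite-strand exons, 46.9% were higher in the PFDN line, with a median log2 difference of 1.20, against 15.8% and -0.13 among the 10080 tested genes with no such overlap. In the pulldowns these medians were 0.40 and -0.14. Genes with at least 50% of exon bases under opposite-strand exons took 0.452 and 0.471% of counts in the PFDN inputs, 0.257 and 0.262% in the TRiC inputs and 0.237 to 0.305% in the pulldowns. The part of strand assignment in the line differences was not tested, so values in the pulldowns stand beside those of the inputs. The opposite-strand share of a gene's exons is named for some of the genes where it is large.

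A gene was called different between lines at an adjusted p under 0.05 in edgeR's quasi-likelihood test with Benjamini-Hochberg adjustment. Of 16341 genes tested, 2898 (17.7%) were higher in the PFDN line and 3685 (22.6%) were lower, 40.3% in all, and 8048 had an unadjusted p under 0.05. In 5230 genes (32.0%) both PFDN inputs lay above both TRiC inputs, and in 6825 (41.8%) below them. More than a 2-fold difference was measured for 1161 of the higher and 2450 of the lower genes. Tested against a 1.5-fold change, 1183 (7.24%) were higher and 2046 (12.5%) lower. The median log2 difference over all genes tested was -0.11, and every log2 difference here is the PFDN line over the TRiC line on CPM, that is counts scaled to library totals that were adjusted by TMM factors. Because 2 libraries against 2 allow no exact permutation p below 1 in 3 for a single value, tests are given only from the fit across all genes. The methods call the replicates biological, without saying how they were separated, and the p-values measure the spread between these samples.

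**Figure D1:**
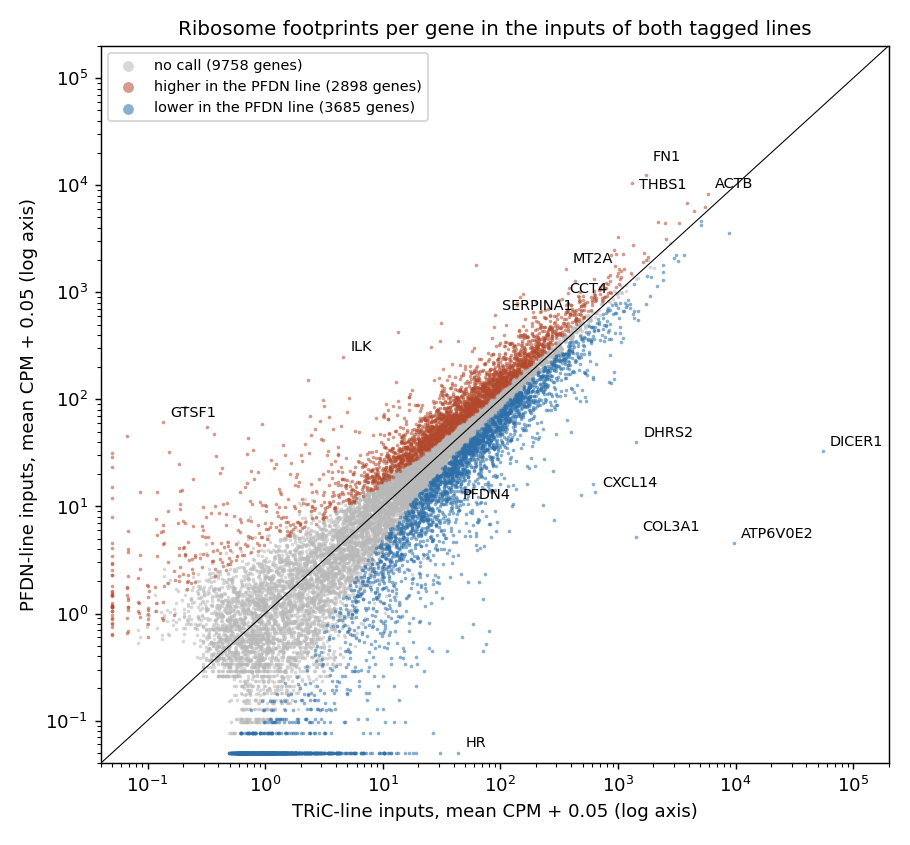
Mean CPM of each tested gene in the TRiC-line inputs (x axis) and the PFDN-line inputs (y axis), both on log axes with 0.05 added, each a mean of 2 libraries. Red points are the 2898 genes called higher and blue points the 3685 called lower in the PFDN line. FN1 and THBS1 lie far above the diagonal and DICER1, ATP6V0E2 and COL3A1 far below it.

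The tagged genes came first. RPFs of CCT4 (chr2:61868085-61888671, minus strand, hg38) stood at 878 and 868 CPM in the PFDN inputs and at 324 and 339 CPM in the TRiC inputs. The groups did not overlap, and the gene was 1.40 ± 0.05 (SE) higher on the log2 scale in the line where it is untagged (adjusted p = 0.00012). RPFs of PFDN4 (chr20:54208087-54228052, plus strand) stood at 11.8 and 9.24 CPM in the PFDN inputs and at 39.9 and 43.4 CPM in the TRiC inputs, a log2 difference of -1.97 ± 0.19 (adjusted p = 0.0012). Each tagged gene thus had fewer RPFs in its own tagged line. PFDN4 lies at 50 to 60 Mb of chromosome 20. Of 30 protein-coding genes there with at least 8 CPM on average, 22 were lower, with a median of -0.95. CCT4 lies at 60 to 70 Mb of chromosome 2, where 18 of 37 such genes were higher and 1 lower, with a median of 0.37. Over all 9774 such genes 26.3% were higher and 23.1% lower. The parts of tag and position were not tested. The pulldowns held the same directions, with log2 differences of 1.48 for CCT4 and -1.62 for PFDN4.

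The other subunits of TRiC were also higher in the PFDN line, by less. All 8 subunits were called higher, with a median log2 difference of 0.56. The share called higher was 17.7% of all genes and 39.0% of tested genes above 68.3 CPM on average. CCT6A, at 788 and 704 against 468 and 498 CPM, differed by 0.63, TCP1 by 0.61, CCT8 and CCT2 by 0.56 each and CCT7 by 0.51. CCT3 and CCT5 differed least, by 0.25 and 0.23. Opposite-strand exons cover 30.8% of the exon bases of CCT5. The 4 subunits without any such overlap were all called higher, with a median of 0.53. CCT5, the most abundant subunit at 1123 and 1124 against 930 and 987 CPM, lost its call in 6 alternatives: with cyclic loess (log2 difference 0.07), with GC and length trends removed (0.10), with at least 100 counts in every library (0.13), without TRiC replicate 1 (0.17), with all 8 libraries in one fit and against 1.5-fold. Together the 8 genes took 0.664 ± 0.013% (SD, n = 2) of all counts in the PFDN inputs and 0.456 ± 0.031% in the TRiC inputs. In the pulldowns, where 9.02% of genes were higher and 14.4% lower, 7 of the 8 were called higher.

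The subunits of prefoldin did not move together. PFDN2 was higher in the PFDN line, at 137 and 118 against 53.4 and 58.4 CPM (log2 difference 1.19), and so was VBP1, at 122 and 153 against 84.4 and 95.7 CPM (0.61). PFDN4 was the 1 member of the 6 called lower. The median was -0.06, and 0.61 over the 3 members without opposite-strand overlap. PFDN1 at -0.21 and PFDN6 at -0.29 did not pass the test, and PFDN5 had 66 counts or fewer in every input.

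The best known substrates of these chaperones differed member by member. Of 14 actins and tubulins, 6 were higher and 2 lower, with a median log2 difference of 0.22 that became -0.31 without genes that overlap an opposite-strand exon. ACTB, cytoplasmic β-actin, had 8159 and 8447 CPM in the PFDN inputs against 5906 and 5788 (log2 difference 0.51), and ACTG1, γ-actin, 2818 and 2710 against 1373 and 1302 (1.05). TUBA4A, an α-tubulin, was higher by 2.42 at 83.5 and 58.8 against 13.1 and 13.5 CPM. TUBB4B, an abundant β-tubulin, had 986 and 976 against 1009 and 999 CPM, with no call. TUBB2B, a neuronal β-tubulin, was lower (-2.47), with 11.3 and 2.89 CPM in the PFDN inputs against 44.7 and 38.2. Among the 9 TRiC and tubulin cofactors, TBCC (1.04) and TBCD (0.47) were higher, ARL2 (-1.33) was lower, and the phosducin-like proteins PDCL and PDCL3 did not pass the test.

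Genes of the cytosolic translation machinery were higher in the PFDN line. Of 80 cytosolic ribosomal protein genes, all of them tested, 63 were called higher and 0 lower, with a median log2 difference of 0.83, so that the typical member had a 1.78-fold higher share of RPFs. Their sum was 2.46 ± 0.03% (SD, n = 2) of all counts in the PFDN inputs and 1.30 ± 0.07% in the TRiC inputs. RPS19, of the small subunit, had 1057 and 1155 CPM against 380 and 381 (log2 difference 1.54), and RPS24 had 689 and 688 against 228 and 249 (1.53). RACK1, the scaffold on the small subunit and the most abundant member, had 2266 and 2244 CPM against 883 and 859 (1.37), and RPL9, of the large subunit, had 81.4 and 84.9 against 21.8 and 20.4 (1.98). At the other end RPS21, RPS27 and RPL39 had differences of -0.24, -0.12 and -0.11 without a call. In the pulldowns 62 of 80 were called higher and 1 lower, and 57 were higher in both.

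Translation factors followed with 29 of 39 tested genes higher and 2 lower, at a median of 0.80. EEF1B2, the exchange factor of eEF1A, had 213 and 176 CPM in the PFDN inputs against 62.2 and 62.8 (1.64), and ABCE1, which splits ribosomes after termination, had 183 and 172 against 51.8 and 62.1 (1.64). EEF2, the translocase and the most abundant factor, stood at 4444 and 4519 CPM against 2580 and 2493 (0.82). The helicase EIF4A2 (-0.39) and the eIF3 subunit EIF3K (-0.32) were the lower members. Most of these genes have processed pseudogenes, and reads were kept only where they aligned to 1 place, so the level of a member with close copies, such as EEF1A1 at 125 and 113 against 52.3 and 63.1 CPM, may be understated.

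Transcripts of ribosomal proteins and translation factors are known for a run of pyrimidines at their 5′ end, the terminal oligopyrimidine motif through which mTOR signalling sets their translation. The annotated start of each gene was therefore read from RefSeq promoters of GRCh38.p14. Windows of 20 bases, 5 before and 15 from the start base on, are shown 5′ to 3′ on the gene's strand for members that were higher with the run and without it, and for genes that were lower. Capitals mark the run, a C followed by at least 4 letters that are each C or T, beginning within 2 bases of the start and searched on the gene's strand only. The windows lie at chr19:41860250-41860269 (RPS19, plus strand), chr10:78033858-78033877 (RPS24, plus), chr5:181243892-181243911 (RACK1, minus), chr19:3985449-3985468 (EEF2, minus), chr6:73521018-73521037 (EEF1A1, minus), chrX:72277234-72277253 (RPS4X, minus), chr17:40417882-40417901 (TOP2A, minus), chr5:69167145-69167164 (CCNB1, plus) and chr16:85799690-85799709 (COX4I1, plus).
RPS19: tcgttCCCTTTCCCCTggct
RPS24: tggttCTCTTTTCCTCCTTg
RACK1: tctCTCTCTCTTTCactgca
EEF2: gcgttCTCTTCCgccgtcgt
EEF1A1: acgttCTTTTTCgcaacggg
RPS4X: gccccaatttctacgcgcac
TOP2A: ctcctaaccgacgcgcgtct
CCNB1: ttctcggcgtgctgcggcgg
COX4I1: ttgCTCTCTTCCggtcgcgg

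The run was found in 2874 of 27305 promoters (10.5%), in 47 of the 64 matched ribosomal protein genes (73.4%), in 13 of 31 translation factors (41.9%) and in 0 of 14 mitotic genes. Ribosomal protein genes with the run had a median log2 difference of 0.84, with 35 of 47 called higher, and those without it a median of 0.73, with 14 of 17 called higher. For translation factors the median was 0.82 with the run and 0.69 without it. With the run 11 of 13 (84.6%) were called higher, and without it 12 (66.7%). For ribosomal protein genes these shares were 74.5% and 82.4%. Over all tested protein-coding genes with a matched promoter, 23.7% of those with the run were called higher and 19.5% of those without it. RPS4X, a small-subunit protein whose window lacks the run, had 687 and 714 CPM against 250 and 256 (1.47), and COX4I1, a cytochrome oxidase subunit whose window holds it, was lower (-0.37). Among the 11168 other tested protein-coding genes with a matched promoter, the 1306 with the run had a median of -0.06 and the rest -0.09. No match says only that these letters are not in this window of the annotated start.

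Degradation and cytosolic folding machinery was partly higher. Of 31 proteasome genes 17 were higher and 5 lower, with a median of 0.36. The lid subunit PSMD12 had 277 and 252 CPM against 94.95 and 100.2 (1.44), and the base subunit PSMD2 had 906 and 881 against 608 and 632 (0.53). PSMA7, of the core, was lower at 265 and 235 against 456 and 453 CPM (-0.86). Of 14 cytosolic heat shock protein genes 7 were higher and 3 lower. HSP90AB1, the constitutive HSP90, had 4611 and 4376 CPM against 2153 and 2232 (1.04), and HSPA8, the constitutive HSP70, 1019 and 994 against 447 and 498 (1.09). The cochaperones HSPH1 (0.61), CHORDC1 (0.58), DNAJA1 (0.47), DNAJB1 (0.42) and BAG3 (0.35) were the other higher members. The 3 lower members were HSP90AA1 (-0.45), HSPA1B (-0.54) and the small heat shock protein HSPB1 (-1.16), HSPB1 at 663 and 673 against 1556 and 1423 CPM. HSPA1A and HSPA1B are near-identical copies, so their counts are uncertain. In the pulldowns 5 of these 14 genes were called higher and none of the 3 lower members was called.

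Chaperones of the endoplasmic reticulum differed without 1 common direction, with 3 of 16 higher and 7 lower. The lectin chaperone CANX was higher (0.50) and its soluble relative CALR lower (-0.46). The disulfide isomerase PDIA4 had 208 and 185 CPM against 380 and 361 (-0.91), and the secretory pathway proteins SDF2L1 (-0.90) and MANF (-0.82) were lower too. HSPA5 (BiP), the main marker of the unfolded protein response, had 1444 and 1209 CPM against 1435 and 1436 and was not called.

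Nuclear genes of the respiratory chain were mostly lower. Of 75 tested nuclear genes for oxidative phosphorylation, 38 were lower in the PFDN line and 4 higher, with a median of -0.41. NDUFB1, of complex I, had 6.82 and 5.68 CPM against 39.1 and 37.7 (-2.61), NDUFB11 had 70.0 and 70.7 against 192 and 191 (-1.44), and COX5B, of complex IV, had 154 and 160 against 295 and 296 (-0.91). NDUFB1 lies at 90 to 100 Mb of chromosome 14, where 21 of 31 protein-coding genes with at least 8 CPM on average were lower. NDUFB9 (0.82) and SDHB (0.73) were the members highest among those called. In the pulldowns 10 of 76 tested genes of this list were called lower and 1 higher, where 14.4% of all genes were lower and 9.02% higher. Of the 38 lower in the inputs, 30 kept a negative sign there, while 5728 of all 6328 called genes tested in the pulldowns kept their sign. Of 77 tested mitochondrial ribosomal protein genes, 27 were higher and 7 lower, led by MRPS34 at 105 and 119 against 34.8 and 33.6 CPM (1.71).

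Of the 13 proteins encoded in mitochondrial DNA, 3 were higher and 5 lower. MT-CO1 had 692 and 634 CPM against 1090 and 1182 (-0.78) and MT-CYB 870 and 817 against 1191 and 1267 (-0.54). MT-ND6, the member encoded on the light strand, had 225 and 194 CPM against 93.2 and 96.8 (1.14). None of these 13 genes was called in the pulldowns by edgeR, where all 5 lower members had log2 differences above 0 and MT-ND6 one of 0.01. Per the study's methods, reads aligning to a noncoding RNA library that held rRNA were discarded before counting. Of the counts left, mitochondrial rRNA and tRNA took 0.410 and 0.344% in the PFDN inputs and 0.879 and 0.897% in the TRiC inputs. The exact binomial 95% interval in the least deep of these libraries was 0.340 to 0.347%, which covers counting error only. Most of these counts fell on 1 gene, the large mitochondrial rRNA MT-RNR2, at 3929 and 3225 against 8803 and 8724 CPM (-1.29), with a difference of 0.59 and no call in the pulldowns. Without the 10 most abundant genes of each library, which held MT-RNR2 in the TRiC inputs but not in the PFDN inputs, the class took 0.404% against 0.0166% on average.

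Genes of cell division had fewer RPFs in the PFDN line. Of 16 genes of mitosis 14 were lower and 0 higher, with a median of -0.93. TOP2A, the topoisomerase of dividing cells, had 822 and 723 CPM against 1662 and 1792 (-1.16), CCNB1, cyclin B1, 432 and 399 against 898 and 996 (-1.19), and AURKA, the spindle pole kinase, 51.4 and 50.1 against 132 and 133 (-1.38). MKI67, the Ki-67 antigen, was lower (-0.58), and CDK1 (-0.18) and BUB1 (-0.28) were not called. In the pulldowns 9 of 16 were called lower.

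Replication-dependent histones were lower as well. Of 67 histone genes 53 were tested, of which 33 were lower and 2 higher, with a median of -0.91. H1-2, a linker histone, had 2261 and 2185 CPM against 3573 and 3789 (-0.73), H3C2, an H3 gene, had 1250 and 1341 against 2360 and 2522 (-0.91) and H1-1, another linker histone, had 141 and 166 against 877 and 975 (-2.59). H4C3 stood far from its neighbours, with 12.5 and 12.9 CPM against 477 and 500, a difference of -5.27 that stood at -4.45 in the pulldowns. H2AC15 went the other way, with 519 and 377 counts in the PFDN inputs and 0 in each of the other 6 libraries of the series. Summed, the histone genes took 1.47 ± 0.05% of counts in the PFDN inputs and 2.51 ± 0.11% in the TRiC inputs (SD, n = 2). These genes resemble each other closely, and reads shared between copies were not kept. Of 23 DNA replication genes 4 were higher and 6 lower, near the shares of all genes. PCNA, the sliding clamp, had 531 and 501 CPM against 438 and 463 with no call, the helicase subunit MCM7 was lower (-0.64) and the licensing factor CDC6 higher (0.68).

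Matrix and adhesion genes differed from gene to gene, in both directions. Of 24 matrix genes 10 were higher and 11 lower, with a median of -0.28 that turned to 0.08 among genes with at least 100 counts in every library. FN1, fibronectin, had 12848 and 11956 CPM in the PFDN inputs against 1752 and 1683 in the TRiC inputs (log2 difference 2.85, a 7.22-fold difference), which made it the most abundant gene of the PFDN line. THBS1, thrombospondin 1, had 10814 and 10100 against 1353 and 1265 (2.998). COL6A3 was higher by 2.62, and its partners in the collagen VI heterotrimer, COL6A1 and COL6A2, were lower (-1.73 and -1.10). The basement membrane collagens COL4A1 (1.55) and COL4A2 (1.42) were higher together.

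The fibrillar collagen COL3A1 was close to absent from the PFDN line. It had 42 and 84 counts, or 2.22 and 8.08 CPM, in the PFDN inputs against 1452 and 1371 CPM in the TRiC inputs, a difference of -8.30 ± 0.41. Its partner in fibrils, COL5A2, which neighbours it on chromosome 2, was lower (-2.99), and so were LAMA4, a laminin chain (-4.78), and BGN, biglycan (-5.28). COL1A1 was high in both lines, at 4559 and 4339 against 3503 and 3166 CPM (0.42). The gelatinase MMP9 had 367 and 340 against 31.8 and 29.1 (3.54). All of these genes that were called kept their sign in the pulldowns.

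Of 20 integrins and adhesion receptors 6 were higher and 8 lower, with a median of -0.40 that turned to 0.07 without genes that overlap an opposite-strand exon. ITGA2, the collagen-binding α2 integrin, had 377 and 324 CPM against 39.8 and 46.7 (3.02), and CD44, the hyaluronan receptor, 922 and 880 against 150 and 143 (2.62). ITGB1, the common β1 chain, had 1536 and 1357 against 1284 and 1377 CPM and was not called. NCAM1 (-1.11) and L1CAM (-0.89), adhesion molecules of neural and mesenchymal cells, were lower. Of 14 genes that respond to YAP or TGF-β, 6 were higher and 3 lower: the matricellular proteins CCN2 (1.24) and CCN1 (1.04) were higher, CCN1 at 2325 and 2239 against 1105 and 1115 CPM, while TPM1, tropomyosin 1, was lower (-1.20).

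Metabolic genes were mostly lower in the PFDN line. Of 22 genes of cholesterol synthesis and its control 12 were lower and 1 higher, with a median of -0.61. LSS, lanosterol synthase, had 52.0 and 77.1 CPM against 373 and 369 (-2.54), FDFT1, squalene synthase, 244 and 216 against 570 and 581 (-1.32), and INSIG1, the sterol-regulated retention factor, 10.6 and 14.2 against 58.7 and 47.6 (-2.11). HMGCS1, an early enzyme of the pathway, was the higher member (0.41). In the pulldowns 7 were called lower and 0 higher by edgeR. Of 18 glycolytic genes 11 were lower and 2 higher, the median being -0.33. Most of these differences were small: PKM, at 4591 and 4647 against 5018 and 5141 CPM, was lower (-0.14), as were GAPDH (-0.45) and LDHA (-0.71). Hexokinase 2, HK2, had 105 and 88.4 CPM against 14.1 and 12.7 (2.86), and the glucose transporter SLC2A1 was higher by 0.98. In the pulldowns 2 glycolytic genes were lower and 2 higher.

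Interferon-stimulated genes were lower or not called. Of 16 genes 9 were lower and 0 higher, with a median of -1.14. Among the 6 members without opposite-strand overlap it was -4.37. With 2 genes of at most 3 counts in each PFDN input set to their bounds, the median of all 16 stayed at -1.14. Replacing values by others on the same side of a median leaves it unchanged, so this is no test of it. BST2, tetherin, had 1.59 and 1.06 CPM against 69.6 and 73.6 (-5.69), and IFIT1, a sensor of foreign RNA, 2.01 and 1.35 against 16.5 and 18.0 (-3.32). IFI27 had 0 and 0 counts against 66 and 73, an at least 10.6-fold lower level when the PFDN inputs are set to 3 counts per library. Its pulldowns held 0 and 65 counts in the PFDN line against 41 and 42 in the TRiC line, a difference of -0.25 with no call. In the pulldowns 3 were called lower, among which BST2 differed by -8.47.

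Stress-responsive genes were not shifted in 1 direction. For comparison, 17.7% of all tested genes were higher and 22.6% lower, and 39.0% and 25.7% of those above 68.3 CPM on average. Of 20 ATF4 targets 3 were higher and 6 lower: the amino acid transporter SLC7A5 (0.89) and the folate enzyme MTHFD2 (0.89) were higher, whereas PHGDH, the first enzyme of serine synthesis, had 175 and 162 CPM against 560 and 541 (-1.71) and DDIT4, an inhibitor of mTORC1, 6.401 and 14.4 against 127 and 130 (-3.70). ATF4 itself had 148 and 144 against 168 and 158 CPM and was not called. Of 18 p53 targets 4 were higher and 6 lower. CDKN1A, the p21 inhibitor, had 121 and 99.9 against 144 and 127 CPM with no call, and MDM2 was higher by 0.62. Of 13 immediate early genes 4 were higher and 2 lower, with MYC at 326 and 303 against 108 and 112 CPM (1.52) and FOS at 6.77 and 8.18 against 34.3 and 35.1 (-2.22). Of 11 hypoxia-responsive genes 1 was higher, VEGFA (0.86), and 4 were lower. The metal-binding protein MT2A had 1600 and 1723 CPM against 342 and 379 (2.20).

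Some genes had almost no counts in 1 of the lines at the depth of these libraries. Of the genes called lower, 1033 (659 of them protein-coding) had at most 3 counts in each PFDN input, and of those called higher, 85 (33 protein-coding) had at most 3 in each TRiC input. The PFDN inputs also held fewer genes and fewer reads in all, as given above. GTSF1, a germline factor of the piRNA pathway, had 1195 and 611 counts in the PFDN inputs and 3 and 2 in the TRiC inputs, at least 597-fold higher against a floor of 3 counts per library. PAGE2B, a cancer-testis gene on chromosome X, had 1017 and 382 against 0 and 1 (at least 443-fold), and PRSS2, a trypsinogen with close paralogs, 655 and 304 against 3 and 3 (at least 313-fold). In the other direction HR, the hairless corepressor, had 0 and 0 counts against 1297 and 1289 (at least 197-fold lower), GPAT2 0 and 0 against 891 and 906 (at least 137-fold) and CSGALNACT1, a chondroitin sulfate enzyme, 1 and 0 against 733 and 857 (at least 121-fold). GLUL, glutamine synthetase, had 0 and 0 against 548 and 571 (at least 85.1-fold). The pulldowns held the same directions for these 7 genes, of which GPAT2 (adjusted p = 0.059) and GLUL (adjusted p = 0.21) were not called there.

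Among genes with at least 100 counts in every input, the largest differences fell into 2 kinds. MARCHF4, a ubiquitin ligase (3.96 in inputs, 3.97 in pulldowns), GASK1B (3.69 and 3.44), GLIPR1 (3.60 and 3.06) and MMP9 (3.54 and 3.76) were higher in both. Opposite-strand exons cover 24.4% of the exon bases of GLIPR1, 18.4% of those of MMP9 and 13.2% of those of GASK1B. CXCL14, a chemokine, had 9.63 and 17.6 CPM against 647 and 627 (-5.61 and -5.60), DHRS2, a mitochondrial reductase, 44.4 and 35.0 against 1432 and 1417 (-5.15 and -4.66), and NOTCH3, a receptor of the Notch pathway, 7.57 and 13.1 against 241 and 224 (-4.55 and -4.02). MN1, a transcriptional coactivator, was lower in both (-3.68 and -3.25).

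Genes of the second kind were not called in the same direction in the pulldowns. ILK, the integrin-linked kinase, had 235 and 266 CPM in the PFDN inputs against 4.37 and 4.72 in the TRiC inputs (5.78), but 17.8 and 2.44 in the PFDN pulldowns, where the difference was 1.57 ± 1.17 with no call, and 78.5% of its exon bases lie under opposite-strand exons. NELFCD, with 97.4% overlap, had 104 and 103 CPM against 5.33 and 4.98 (4.32) and 0.42 with no call in the pulldowns. For both genes the difference between inputs and pulldowns did not pass edgeR's test either (adjusted p = 0.17 and 0.16). SRSF2, a splicing factor with 27.7% overlap, had 520 and 519 CPM against 31.4 and 31.7 (4.04), and all 4 pulldowns lay between 33.7 and 53.8 CPM. TOR3A, a torsin ATPase with no overlap, had 17.6 and 14.7 CPM against 659 and 572 (-5.23), but was higher in the PFDN pulldowns by 1.83.

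DICER1 and ATP6V0E2 were the extremes by abundance. DICER1, the microRNA-processing nuclease (chr14:95086228-95158010, minus strand), had 37.98 and 27.8 CPM in the PFDN inputs and 72686 and 37339 in the TRiC inputs, where it was the most abundant protein-coding gene. The PFDN pulldowns held 23294 and 1265 CPM and the TRiC pulldowns 88523 and 107323, so the level also differed widely between replicates. ATP6V0E2, a subunit of the vacuolar proton pump, had 5.18 and 3.75 CPM against 14363 and 5062, and 4620 and 1288 CPM in the PFDN pulldowns. A count table does not give where in a gene the reads lay. Among genes with at least 8 CPM in each of the other 6 libraries, 3 lay at least 8-fold lower in both PFDN inputs than in each of those, DICER1, ATP6V0E2 and SCARNA10, a small RNA of Cajal bodies. Among genes with at least 8 CPM in both PFDN inputs, 16 lay at least 8-fold higher. Without that limit on CPM, 4 genes with at least 100 counts in each of the other 6 libraries had at most 3 in each PFDN input.

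The levels of the most abundant genes show what the reference translatomes were made of. By counts the leading protein-coding genes over the 4 inputs, with DICER1 and ATP6V0E2 set aside, were ACTB, FN1, THBS1, FLNA, PLEC, MYH9, PKM and ENO1, that is cytoskeleton, matrix and glycolysis. FLNA, filamin A, at 6245 and 6324 against 5644 and 5316 CPM, differed by 0.20 on the log2 scale, MYH9, non-muscle myosin, by 0.37, ENO1, enolase, by -0.27 and PLEC, plectin, by 0.83. Per kilobase of coding sequence, a scale that allows genes to be compared, and with the same 2 genes set aside, ACTB was highest in the mean over the 4 inputs, with 7381 CPM per kb in the PFDN inputs and 5197 in the TRiC inputs. MT2A stood at 7586 and 1647 CPM per kb, LGALS1, galectin 1, at 3828 and 5953, the thymosin TMSB10 at 4503 and 4844, and H3C2 at 3175 and 5983. The 10 most abundant genes of each library took 6.81 and 6.82% of counts in the PFDN inputs and 12.7 and 8.59% in the TRiC inputs. Nuclear protein-coding genes took 98.0 and 98.2% against 97.6 and 97.5%, and small nuclear RNAs 0.289 and 0.259% against 0.127 and 0.105%. These are shares of what was left after reads aligning to noncoding RNA had been discarded.

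The identity of the cells was read from marker genes. The mesenchymal and osteoblast markers COL1A1, SPARC, VIM, CDH2, THY1 and RUNX2 were present in all 4 inputs, with RUNX2 at 41.2 and 59.5 against 57.1 and 50.6 CPM, whereas COL1A2 reached at most 1.73 CPM and TWIST1 and NT5E at most 4 counts per input. Of 10 such markers tested, 5 were higher in the PFDN line and 2 lower, and the bone phosphatase ALPL differed most, at 42.9 and 42.7 against 3.38 and 2.48 CPM (3.87). None of 7 blood cell markers passed the filter on low counts, the highest being SPI1 at 13 counts. Of 8 epithelial markers 4 passed it: CLDN4 was lower (-2.43, with 18.3 and 10.7 against 77.8 and 82.1 CPM), KRT5 was lower (-5.12), KRT14 was higher (3.21) and EPCAM was not called, while CDH1 was at 0 in the PFDN inputs. Of 6 hepatocyte markers the protease inhibitor SERPINA1 was higher at 659 and 559 against 90.5 and 90.2 CPM (2.75), and ALB and TTR were at 0 in every input. ATRX, a chromatin remodeller known as lost in U-2 OS, had 93.6 and 107 against 97.7 and 110 CPM, and the silent genes CDKN2A and TERT had at most 4 counts per input.

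The pulldowns gave a second reading of the line difference from other libraries of the same cells. Of 15538 genes tested in both, 1306 were higher in both, which is 46.7% of those higher in the inputs and 85.5% of those higher in the pulldowns, and 1132 were lower in both, 32.1% and 59.7%. Calls were opposite for 13 and 4 genes, and the difference between both contrasts passed the interaction test for 7 of 18855 genes (0.0371%), with 2791 at an unadjusted p under 0.05 in edgeR. Of 6328 genes called in the inputs and tested in the pulldowns, 5728 had the same sign there. Over the 4903 called genes with a mean of at least 8 CPM, the differences had a Pearson correlation of 0.852, which is a description across genes that are not independent and that share the cells of each line. The pulldowns varied more, with a common dispersion of 0.308 against 0.0570 in the inputs, and they were also selected for the tagged chaperone, so a missing call there does not show that a difference was absent.

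**Figure D2:**
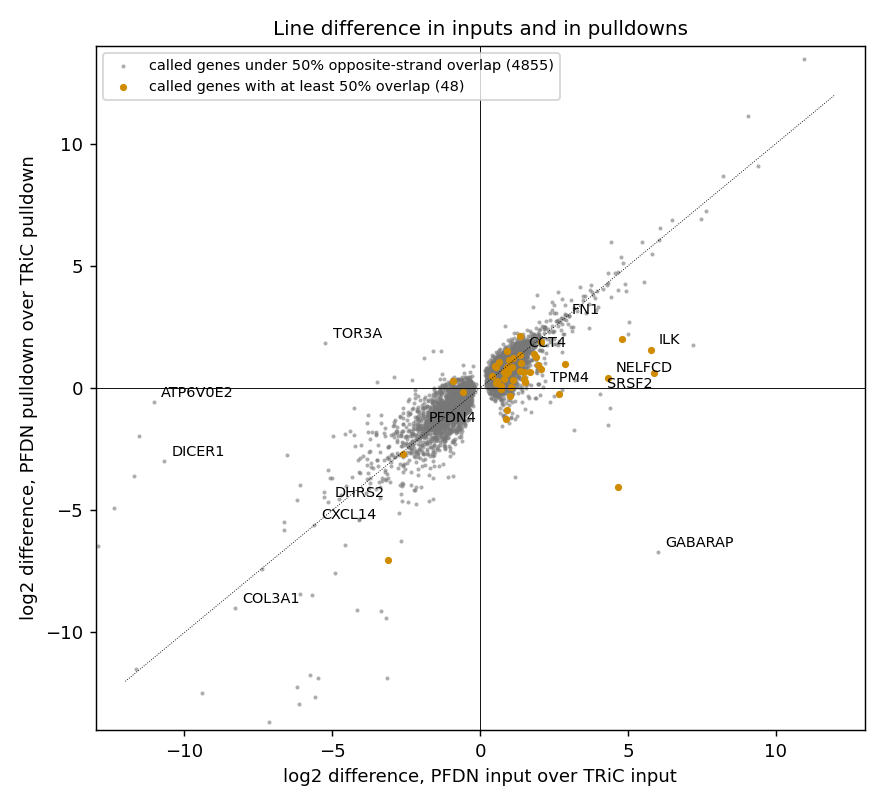
Log2 difference between lines in the inputs (x axis) and in the pulldowns (y axis) for called genes with a mean of at least 8 CPM, with the 48 genes of at least 50% opposite-strand overlap in orange and the other 4855 in grey. Most points lie at the lower left and upper right, TOR3A, ATP6V0E2 and GABARAP lie away from the dotted line of equal difference, and fitted values near the corners belong to genes at or near 0 counts in 1 line, where they depend on the prior count.

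Differences were also grouped along chromosomes. Over 9774 protein-coding genes with a mean of at least 8 CPM, of which 26.3% were higher and 23.1% lower, the median was 0.04. It was -0.39 on chromosome 20, where 116 of 271 genes were lower and 49 higher, -0.31 on chromosome 14, -0.30 on chromosome 15 and -0.27 on chromosome 18, where 51 of 143 were lower and 18 higher. Chromosomes 13 (0.20), 10 (0.20) and 2 (0.17) had the highest medians. In the pulldowns the medians of chromosomes 20, 14, 15 and 18 were -0.19, -0.30, -0.28 and -0.35.

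Within chromosomes the pattern was sharper. Among 241 windows of 10 megabases with at least 15 such genes, 11 had a median under -0.5 and 8 a median over 0.5, and all 19 had a median of the same sign in the pulldowns. The lowest lay at 50 to 60 Mb of chromosome 20 (-0.95), where 22 of 30 genes were lower and 2 higher; it holds PFDN4 and GNAS, the stimulatory G protein, at 560 and 544 against 1484 and 1455 CPM (-1.41). Next came 90 to 100 Mb of chromosome 14 (-0.93, 21 of 31 genes lower), 40 to 50 Mb of chromosome X (-0.87, 30 of 46 lower), where UBA1, the ubiquitin-activating enzyme, had 625 and 637 against 1361 and 1343 CPM (-1.10), 60 to 70 Mb of chromosome 20 (-0.87) and 40 to 50 Mb of chromosome 21 (-0.83, 23 of 36 lower). The window at 20 to 30 Mb of chromosome 6, where most histone genes lie, had a median of -0.60, with 31 of 55 genes lower. The highest lay at 70 to 80 Mb of chromosome 4 (0.84), where 20 of 30 genes were higher and 1 lower, and at 30 to 40 Mb of chromosome 15 (0.61), which holds THBS1. Some list members described above lie in these low windows: AURKA and PSMA7 on chromosome 20, NDUFB1 on chromosome 14 and LSS on chromosome 21. The part of position in the list differences was not tested. Exceptions stood inside such windows: SERPINA1 was higher within the low window of chromosome 14, and the TGF-β-induced gene PMEPA1 (1.15) within that of chromosome 20 at 50 to 60 Mb.

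Base composition and abundance moved with the line difference. With genes split into 5 equal bins of coding GC content, from the lowest to the highest bin the median log2 difference fell from 0.09 to -0.40 in the inputs, against -0.13 and -0.19 in the pulldowns, whereas across 5 bins of coding length it stayed between -0.13 and -0.07. With trends on GC content and length removed from each library, the medians of ribosomal proteins, mitosis and nuclear oxidative phosphorylation genes were 0.78, -0.94 and -0.46. By abundance the median ran from -1.09 in the lowest of 5 bins of mean CPM to 0.11 in the highest, with the same order in the pulldowns. The share called higher rose from 2.63% in the lowest bin to 39.0% in the highest. The share called lower was 28.3% and 25.7% in those bins.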

How the data were processed

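Ribosome-protected fragments of U-2 OS cells were sequenced in 8 libraries, of which the 4 inputs are described here. Per the study's methods, the authors removed adapters and handled molecular identifiers with UMI-tools, discarded reads aligning to noncoding RNA with Bowtie2 (version 2.4.2), aligned the rest to hg38 with STAR (2.7.10a) allowing 2 mismatches, and kept unique alignments. The deposited values are counts per gene from STAR, not normalised, for 60664 Ensembl identifiers. The annotation release and the strand column used are not given in the sources used here. Of the identifiers, 60463 were named through GENCODE release 44, which also gave coordinates and opposite-strand exons. Library totals ran from 10254334 to 30217740 in the inputs, and their number, 2 per line, limits the precision.

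Genes were kept by filterByExpr, scaled by TMM and tested between lines with edgeR (4.0.16; glmQLFit and glmQLFTest) in R 4.3.3 at a Benjamini-Hochberg adjusted p of 0.05, the inputs alone in one fit and the pulldowns in another, with the difference of both differences tested over all 8 libraries. The fit over all 8 libraries took them as independent and did not pair an input with the pulldown of the same replicate number. limma (3.58.1) and DESeq2 (1.42.0) served for alternatives. The test was checked on simulated data. A level bound uses a floor of 3 counts per library. Alternatives covered scaling, filters, overlapping genes, a 1.5-fold threshold, thinning, GC content and length, a replicate block and leaving out each replicate.

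Genes named are the tagged genes, the 10 protein-coding genes with the most CPM and the 10 with the most per coding kb, the 8 largest differences in each direction with at least 100 counts in every input, the 4 most abundant genes near absent from the other line, and the most abundant and most different member of each of 31 lists. Other list members are examples chosen after their values were seen. A few genes that fall under this rule are not reported here. The inputs and the gene lists were chosen with earlier results of these data known.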

Additional observations from a re-analysis of the deposited data

Results flagged for a closer look

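The difference between lines in the inputs itself differed from that in the pulldowns for 7 of 18855 genes (0.0371%) in edgeR's quasi-likelihood test of the interaction, with 2791 at an unadjusted p under 0.05. Values below are the log2 line difference in inputs minus that in pulldowns.

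SRSF2, a splicing factor, differed by 4.26 (adjusted p = 0.0031), with 520 and 519 CPM in the PFDN inputs and 31.4 to 53.8 CPM in the other 6 libraries. TPM4, a tropomyosin, differed by 2.10 (adjusted p = 0.037), with 149 and 125 CPM in the PFDN inputs against 30.1 and 32.9, while the pulldowns had 37.0 and 38.8 against 33.3 and 41.1. GABARAP, an autophagy adaptor, had 38.6 and 47.9 CPM in the PFDN inputs against 0.782 and 0.554, and its pulldowns had 0 and 0 against 0.567 and 0.513 (fitted 12.65, adjusted p = 0.017). In these 3 genes the PFDN inputs were the high libraries.

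RNU5A-1, a U5 small nuclear RNA with close copies, differed by 2.80 (adjusted p = 0.017), with 471 and 376 CPM in the PFDN inputs against 15.4 and 11.2, and 180 and 167 in the PFDN pulldowns against 41.2 and 34.3. Its counts are of reads left after the removal of noncoding RNA. TOR3A differed by -7.07 (adjusted p = 0.0048), with 17.6 and 14.7 CPM against 659 and 572 in the inputs and 665 and 288 against 139 and 129 in the pulldowns. ATP6V0E2 differed by -10.45 (adjusted p = 0.031), being low in the PFDN inputs alone, at 5.18 and 3.75 CPM. MYOCOS was at 0 in both PFDN inputs, at 7.78 and 5.67 CPM in the TRiC inputs, at 19.6 and 20.7 in the PFDN pulldowns and at 4.44 and 4.86 in the TRiC pulldowns (fitted -12.39, adjusted p = 0.031). Where libraries are at 0, the fitted value depends on the prior count.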

How the results depend on the processing

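Of the genes called between inputs (2898 higher, 3685 lower), 1579 and 2171 were called without genes that overlap an opposite-strand exon, where 10123 were tested, 1183 and 2046 against a 1.5-fold change, and 1872 and 1986 with all 8 libraries in one fit. Among genes with at least 100 counts in every library and no such overlap, an alternative chosen after seeing the data, 1304 and 1346 were called of 5009 tested. Leaving out 1 library gave 1791 to 4702 higher and 1835 to 6382 lower. The high values came without PFDN replicate 1 (4369 and 6374) or 2 (4702 and 6382), and the low ones without TRiC replicate 1 (1791 and 1835) or 2 (1857 and 1843), the lone sample being assumed to vary like the other line. The cause was not tested.

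In the pulldowns, with 1540 higher and 2453 lower, DESeq2 called 2839 and 4283, the 1.5-fold test 358 and 207, and leaving out 1 library gave 701 to 4924 and 427 to 7093. Without overlapping genes 847 were higher. The lower calls numbered 1018 with cyclic loess, 1289 and 1286 with at least 10 or 100 counts in every library and 1375 after thinning.

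List medians changed sign without overlapping genes for actins and tubulins (-0.31), p53 targets (0.053), DNA replication (0.029), adhesion receptors (0.068) and mesenchymal markers (-0.092), with at least 100 counts for matrix proteins (0.077) and with at least 10 for epithelial markers (0.67). The prefoldin median, -0.064, was 0.62 without overlapping genes, 0.098 with at least 100 counts and 0.20 without PFDN replicate 2. No named gene with a call changed sign, whereas JUN and ATRX, which had none, did, and 16 named genes lost their call against 1.5-fold. Cyclic loess moved the median of all genes from -0.11 to 0.03, and it left the medians of ribosomal proteins at 0.80 and of mitosis at -1.04. Same-numbered inputs of both lines did not deviate together (correlation 0.0041), so the numbers were not taken to pair inputs across lines. With the replicate block, 2752 were higher and 3024 lower between inputs, against 1788 and 1637 between pulldowns. Genes with few counts were limited by the depth of the second PFDN input.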
